A study of Rattus norvegicus with 12 samples.

Results

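The genes described here encode 10 enzymes of families named for switching steroid hormones between stronger and weaker forms, some of which act mainly on other lipids. They are the 17-beta-hydroxysteroid dehydrogenases Hsd17b1, Hsd17b2, Hsd17b3, Hsd17b4 and Hsd17b12, the 11-beta-hydroxysteroid dehydrogenases Hsd11b1 and Hsd11b2, and the 5-alpha reductases Srd5a1, Srd5a2 and Srd5a3. They were taken by name from the deposited expression table, where each of the 10 names matched 1 gene, out of 19730 genes in all. Ovarian RNA of 12 wild type female Sprague Dawley rats at 15 weeks of age was sequenced, in 1 library per rat and 4 rats per group. Control rats were untreated and ate standard food. PCOS rats, a model of polycystic ovary syndrome (PCOS), had received the aromatase inhibitor letrozole by mouth at 1 mg/kg/day for 30 days together with a high-fat diet. PCOS-MV rats had received the same letrozole and diet and then mogroside V (MV), a sweet triterpenoid glycoside of monk fruit, by gavage at 600 mg/kg/day for 30 days. Letrozole-treated rats had been kept as models where their vaginal smears stayed in metestrus and diestrus. Letrozole and the diet were given to the same rats, so their parts in any difference from the control group cannot be told apart. What the PCOS rats received while the PCOS-MV rats received MV is not given in the sources used here.

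Hydroxysteroid dehydrogenases add or remove hydrogen at one carbon of the steroid skeleton and so turn a ketone into an alcohol or back. Hsd17b1 makes estradiol from estrone in granulosa cells, Hsd17b3 makes testosterone from androstenedione and is best known from Leydig cells of the testis, and Hsd17b2 runs these reactions backwards. Hsd11b1 regenerates active glucocorticoid (corticosterone in the rat) from its inert keto form, and Hsd11b2 inactivates it. The 5-alpha reductases Srd5a1 and Srd5a2 turn testosterone into dihydrotestosterone and also reduce progesterone. Hsd17b4 and Hsd17b12 act mainly on fatty acids, in peroxisomal beta-oxidation and in fatty acid elongation, and Srd5a3 acts mainly on polyprenol in the synthesis of dolichol, the lipid carrier of protein glycosylation.

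Values were in FPKM, fragment counts scaled to transcript length and to the depth of the library, so that levels of different genes can be set side by side. The lowest values placed the depth at about 30300000 to 37000000 fragments. With limma, log2(FPKM + 1) was tested over the 13430 genes whose mean over the 12 libraries reached 1 FPKM. A gene was called when its p-value, adjusted by the method of Benjamini and Hochberg, was under 0.05. Of the 10 enzyme genes, 9 passed this filter and Srd5a2 did not. Hsd17b3 passed it narrowly, with a mean of 1.16 FPKM over the 12 libraries, through its level in the PCOS group alone. As a check of the tissue, the granulosa marker Foxl2 was at 57.1 FPKM in Control and 66.8 FPKM in PCOS rats, and 0 of 10 granulosa, 0 of 7 luteal and 0 of 6 theca markers were listed at 0 in any library. The ovary was sequenced whole, so that fewer cells of a type and less RNA per cell cannot be told apart.

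In the control ovary the enzyme genes spanned a wide range of levels. Hsd17b4 stood highest with 61.6 ± 8.38 FPKM (SD, n = 4), followed by Hsd17b1 with 47.7 ± 11.3, Srd5a3 with 34.3 ± 9.68 and Hsd17b12 with 33.0 ± 3.25 FPKM. The libraries of neighbouring genes in this order overlapped. After a gap came Hsd11b1 with 11.9 ± 2.04 FPKM and Srd5a1 with 10.5 ± 2.92 FPKM, then Hsd11b2 with 4.14 ± 2.26 and Hsd17b2 with 1.59 ± 0.409 FPKM, and each of these overlapped the next. Hsd17b3 was lower than Hsd17b2 in every control library, at 0.166 ± 0.0726 FPKM. In the PCOS group the order changed at the top, where Hsd11b1 led with 78.9 ± 9.57 FPKM, apart from Hsd17b4 with 51.2 ± 1.09 FPKM. Hsd17b3 moved up past Hsd11b2 and Hsd17b2 there, to 3.16 ± 1.18 FPKM. In the PCOS-MV group Hsd17b4 and Hsd17b1 were the 2 highest, as in the control group, at 58.3 ± 5.996 and 41.5 ± 21.4 FPKM. Hsd11b1 was at rank 5 in both groups.

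**Figure D1:**
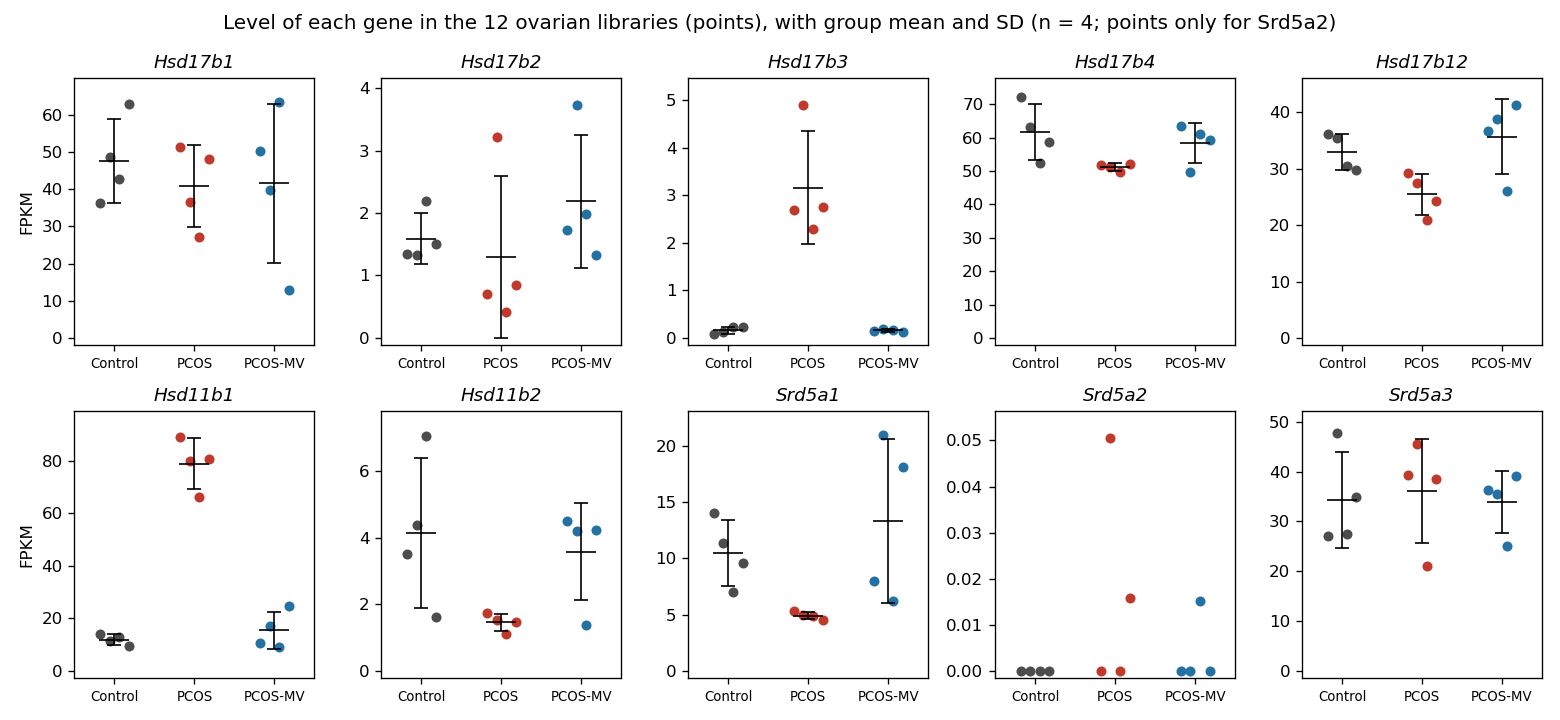
FPKM of each of the 10 genes (vertical axes, linear and separate for each gene) by group (Control, PCOS and PCOS-MV). Each point is 1 library, and the bars give the group mean and SD (n = 4), except for Srd5a2, where points alone are drawn. Hsd11b1 lies between 65.9 and 89.0 FPKM in the PCOS libraries and at or below 24.6 FPKM in all others.

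Hsd17b3, the testosterone-forming enzyme, rose in the PCOS group from near the floor of detection. Its level was 0.0814, 0.129, 0.231 and 0.221 FPKM in Control replicates 1 to 4, and 2.69, 4.91, 2.29 and 2.75 FPKM in PCOS replicates 1 to 4. Every PCOS library was thus far above every control library. In the PCOS-MV libraries it was 0.155, 0.196, 0.177 and 0.124 FPKM, within the range of the control libraries. From the transcript length these values come to an estimated 2.98 to 8.17 fragments per control library, 4.80 to 7.40 per PCOS-MV library and 77.0 to 189 per PCOS library. The ratio of group means was 19.1 in PCOS vs Control. On the log2(FPKM + 1) scale, which understates low genes, Hsd17b3 was higher by 1.80 in PCOS vs Control (standard error 0.19, limma adjusted p = 0.000244). It was lower by 1.80 in the PCOS-MV against the PCOS group (standard error 0.17, limma adjusted p = 0.000321). Since the gene entered the test through its PCOS level, it was also tested among all genes with any value above 0, with no filter on low values, where both changes passed too (limma adjusted p = 0.000734 and 0.00123). Both calls held with each library left out in turn. With a pseudocount of 0.1 in place of 1, the changes were 3.60 and -3.58.

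Hsd17b3 (ENSRNOG00000019096) lies on chromosome 17 from 1579319 to 1610745 in the coordinates of the deposited table, whose genome build is not stated. The promoters of 6 of the 10 genes were found in the RefSeq table of the GRCr8 assembly. The 250 bases before the start of Hsd17b3 are shown because this gene had the largest ratio between groups. They come from the plus strand of chr17:1032708-1032957, and 49.6% of their bases are G or C. The deposited coordinates place Hsd17b3 on the minus strand, and this difference was not resolved. Capitals would mark a match, on either strand, to any of 6 short motifs, AAGGTCA (bound by nuclear receptors such as Nr5a1), TTGCNNAA (C/EBP), TGACG (cAMP response), AGAACA (glucocorticoid receptor), TATAAA (core promoter) and GGGCGG (GC box). None of these letters was found in this window.
Hsd17b3: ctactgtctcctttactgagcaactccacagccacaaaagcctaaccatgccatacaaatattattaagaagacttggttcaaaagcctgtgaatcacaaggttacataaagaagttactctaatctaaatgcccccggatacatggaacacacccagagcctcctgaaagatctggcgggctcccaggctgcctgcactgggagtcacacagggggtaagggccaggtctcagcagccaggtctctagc
Among all 27457 rat promoters of the same length, 3.8% held AAGGTCA, 9.2% held TTGCNNAA, 19.0% held TGACG, 17.1% held AGAACA, 13.1% held TATAAA and 32.4% held GGGCGG.

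Hsd17b1, the estradiol-forming enzyme, did not pass the test in any comparison, although its range between rats was wide. It was 36.4, 48.6, 42.8 and 62.8 FPKM in the control libraries, 51.3, 36.7, 27.1 and 48.1 FPKM in the PCOS libraries and 50.3, 39.7, 63.3 and 12.8 FPKM in the PCOS-MV libraries. The groups overlapped, and PCOS-MV replicate 4 was the lowest of all 12 libraries. Its log2 change was -0.23 in PCOS vs Control (95% interval -0.74 to 0.28, limma adjusted p = 0.477), and against the PCOS group it was -0.14 in PCOS-MV rats (95% interval -1.16 to 0.88, adjusted p = 0.851). Without PCOS-MV replicate 4 the latter turned to 0.33 (adjusted p = 0.361). The summed level of 10 granulosa markers was also lowest in that library among the PCOS-MV libraries, at 878 FPKM against 1159 to 1434 FPKM, and its part in the low Hsd17b1 value was not tested.

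Hsd17b2, which oxidises estradiol and testosterone, was low throughout. It was 1.35, 1.32, 2.19 and 1.501 FPKM in the control libraries, 0.709, 3.21, 0.414 and 0.846 FPKM in the PCOS libraries and 1.72, 3.73, 1.98 and 1.32 FPKM in the PCOS-MV libraries. Apart from replicate 2, the PCOS libraries were lower than every control library, and replicate 2 was higher than every one of them. The log2 change was -0.30 in PCOS vs Control, and for PCOS-MV against PCOS it was 0.56 (limma adjusted p = 0.519 and 0.277). Without PCOS replicate 2 the changes were -0.64 and 0.90, and both passed (adjusted p = 0.0377 and 0.0401), so that for Hsd17b2 1 library decides on which side of the threshold both changes fall.

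Hsd17b4 and Hsd17b12, the enzymes that mainly handle fatty acids, differed little between the groups. Hsd17b4 was 72.2, 63.3, 52.3 and 58.6 FPKM in the control libraries and 51.8, 51.0, 49.7 and 52.2 FPKM in the PCOS libraries. These ranges did not overlap, narrowly, and the log2 change of -0.25 did not pass (limma adjusted p = 0.0875) except without Control replicate 3 (-0.33, adjusted p = 0.0228). In the PCOS-MV libraries it was 63.3, 49.7, 61.1 and 59.2 FPKM, with a log2 change against the PCOS group of 0.18 (adjusted p = 0.150), which passed only without PCOS-MV replicate 2 (0.25, adjusted p = 0.036).

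Hsd17b12 was 36.1, 35.4, 30.5 and 29.8 FPKM in the control libraries, 29.2, 27.5, 20.9 and 24.2 FPKM in the PCOS libraries and 36.6, 38.7, 26.1 and 41.2 FPKM in the PCOS-MV libraries. It was lower in every PCOS library than in every control library, and fell by 0.37 on the log2 scale (limma adjusted p = 0.0458). This call was lost without Control replicate 1, 2 or 4 or PCOS replicate 2, 3 or 4 (adjusted p = 0.0524 to 0.113), with no filter on low values (adjusted p = 0.066) and in 1 model of all 12 libraries (adjusted p = 0.0803). Its change in PCOS-MV vs PCOS was 0.46 and did not pass (adjusted p = 0.0606), and the ranges overlapped at PCOS-MV replicate 3. Without that library it was 0.60 (adjusted p = 0.00944), and it also passed in 1 model of all 12 libraries (adjusted p = 0.0361).

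Hsd11b1, which regenerates active glucocorticoid, showed the clearest difference among the enzyme genes. Its level was 14.0, 11.2, 13.02 and 9.41 FPKM in Control replicates 1 to 4 and 89.0, 79.8, 65.9 and 80.6 FPKM in PCOS replicates 1 to 4. Every PCOS library was thus far above every control library. In PCOS-MV replicates 1 to 4 it was 10.7, 17.2, 9.27 and 24.6 FPKM, which spans the control range and runs above it in replicates 2 and 4. Hsd11b1 rose by 2.63 (log2) in PCOS vs Control (standard error 0.13, limma adjusted p = 8.44e-06), a ratio of group means of 6.62. It fell by 2.37 in the PCOS-MV against the PCOS group (standard error 0.27, limma adjusted p = 0.000642), where the PCOS mean was 5.11 times the PCOS-MV mean. Both calls held with each library left out in turn and in the 8 other settings tried. Hsd11b1 (ENSRNOG00000005861) lies on chromosome 13 from 111926442 to 111972603 in the deposited coordinates.

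Hsd11b2, the opposing enzyme that inactivates glucocorticoid, was 3.4996, 4.37, 7.06 and 1.62 FPKM in the control libraries, 1.74, 1.53, 1.11 and 1.48 FPKM in the PCOS libraries and 4.50, 4.203, 1.40 and 4.23 FPKM in the PCOS-MV libraries. Control replicate 4 and PCOS-MV replicate 3 lay within the PCOS range. Control replicate 3, the highest, also had the highest marker sums of all 12 libraries for ciliated oviduct epithelium (70.6 FPKM), smooth muscle (1004 FPKM) and adipocytes (69.0 FPKM), and their part in its Hsd11b2 level was not tested. Without it the change in PCOS vs Control was -0.70 (adjusted p = 0.0586). Hsd11b2 fell by 0.95 (log2) in PCOS vs Control (limma adjusted p = 0.0441) and its rise in PCOS-MV vs PCOS was 0.83 (adjusted p = 0.0467). Neither call was firm. The first held in 1 of 8 fits with 1 library left out, that without Control replicate 4 (highest adjusted p = 0.106 among the others), and the second in 1 of 8, that without PCOS-MV replicate 3 (adjusted p up to 0.113 among the others). Both were lost with no filter (adjusted p = 0.0787 and 0.0823) and in 1 model of all 12 libraries (adjusted p = 0.0506 and 0.0905).

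Among the 5-alpha reductases, Srd5a1 (ENSRNOG00000017601, chromosome 1 from 36320461 to 36354756 in the deposited coordinates) was the isoenzyme of testosterone and progesterone present in the ovary. It was 14.0, 11.4, 7.05 and 9.59 FPKM in the control libraries and 5.32, 4.95, 4.86 and 4.55 FPKM in the PCOS libraries, which lay below every control library and close together. The PCOS-MV libraries split widely, with 20.9 and 18.1 FPKM in replicates 2 and 4 and 8.02 and 6.22 FPKM in replicates 1 and 3, all above the PCOS group. Srd5a1 fell by 0.92 (log2) in PCOS vs Control (standard error 0.17, limma adjusted p = 0.00476), and this call held with each library left out in turn but not with all 12 libraries in 1 model (adjusted p = 0.0511). It rose by 1.12 in the PCOS-MV against the PCOS group (standard error 0.34, limma adjusted p = 0.0407). That call held only without PCOS-MV replicate 1 or 3, and was lost without any 1 of the other 6 libraries (adjusted p = 0.0741 to 0.0941) and with no filter on low values (adjusted p = 0.0758), while the log2 change with 1 library left out stayed between 0.86 and 1.40.

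Srd5a2, the isoenzyme of the male reproductive tract, was listed at 0 in 9 of 12 libraries. The other 3 values were 0.0506 FPKM in PCOS replicate 2, 0.0158 FPKM in PCOS replicate 4 and 0.0153 FPKM in PCOS-MV replicate 3, which come to an estimated 3.11 fragments in the first and 1 fragment in each of the others. At this depth Srd5a2 was at or near the limit of detection in all groups. Srd5a3, the polyprenol reductase, was 27.2, 47.8, 27.4 and 34.8 FPKM in the control libraries, 39.3, 45.5, 21.1 and 38.4 FPKM in the PCOS libraries and 36.2, 35.4, 25.0 and 39.0 FPKM in the PCOS-MV libraries. The 3 groups overlapped almost completely, with log2 changes of 0.06 and -0.05 (95% intervals -0.53 to 0.64 and -0.59 to 0.49, limma adjusted p = 0.895 and 0.894).

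The promoters of Srd5a1 and Srd5a2 are set side by side because both enzymes catalyse the same reaction and only Srd5a1 passed the filter on low values. Both are 250 bases before the start in GRCr8, on the plus strand of chr1:35514664-35514913 and of chr6:27177839-27178088, and capitals mark the same 6 motifs. The deposited coordinates place Srd5a2 on the minus strand, and this difference was not resolved.
Srd5a1: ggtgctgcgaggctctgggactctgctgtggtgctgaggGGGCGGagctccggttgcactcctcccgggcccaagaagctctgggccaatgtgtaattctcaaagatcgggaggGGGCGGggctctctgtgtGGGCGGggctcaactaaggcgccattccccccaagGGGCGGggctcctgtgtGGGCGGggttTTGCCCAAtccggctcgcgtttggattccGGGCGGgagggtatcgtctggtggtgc
Srd5a2: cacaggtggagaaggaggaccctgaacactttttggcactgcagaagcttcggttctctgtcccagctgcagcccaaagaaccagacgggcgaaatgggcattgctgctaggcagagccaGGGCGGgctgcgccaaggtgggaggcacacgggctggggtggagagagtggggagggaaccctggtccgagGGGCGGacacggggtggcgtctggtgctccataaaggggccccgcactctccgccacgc
The window of Srd5a1 holds the GC box 6 times and TTGCNNAA once, and that of Srd5a2 holds the GC box 2 times. The share of G and C is 66.4% and 65.2%. A match describes letters in the window and not a bound site.

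Hsd17b3 is left out of the following counts, because it passed the filter only through the group where it is high, a choice made after its values were seen. Of the other 8 tested enzyme genes, 4 were called in PCOS vs Control, where 27.4% of all genes tested were called. Hsd11b1 rose, 1 of 8 against 11.9% of all genes called higher, and Hsd17b12, Hsd11b2 and Srd5a1 fell, 3 of 8 against 15.6% called lower. The groups did not overlap for 4 of the 8, Hsd17b4 in place of Hsd11b2, against 31.0% of all genes (1 higher against 13.8% and 3 lower against 17.2%). In PCOS-MV vs PCOS, 3 of 8 were called (25.7% of all genes), with Hsd11b1 lower (11.4% of all genes called lower) and Hsd11b2 and Srd5a1 higher (14.3% called higher). The groups did not overlap there for Hsd11b1 and Srd5a1, 2 of the 8 genes, against 30.0% of all genes. The PCOS libraries serve in both comparisons, so opposite signs in the 2 comparisons are not independent of each other. The median log2 change of the 8 genes was -0.28 and 0.32, beside -0.03 and 0.03 over all genes tested.

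**Figure D2:**
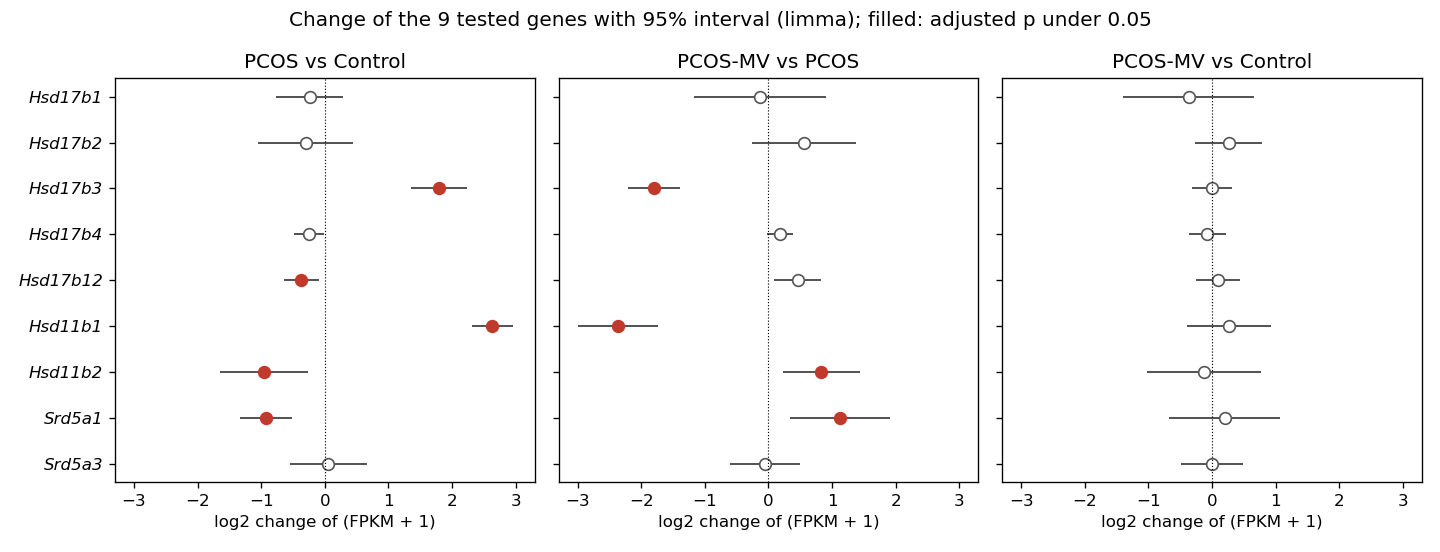
Difference in mean log2(FPKM + 1) of the 9 tested genes (horizontal axes) in PCOS vs Control, PCOS-MV vs PCOS and PCOS-MV vs Control, with 95% intervals from limma. Filled points have an adjusted p-value under 0.05, which 5, 4 and 0 genes, with Hsd17b3 counted, reach in the 3 panels. Among all genes tested the shares called were 27.4%, 25.7% and 0.00745%.

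Compared directly with the control group, 0 of the 8 enzyme genes were called in the PCOS-MV group (limma), where 0.00745% of all genes tested were called. None had an unadjusted p under 0.05, and none was called in any other setting tried. The groups were without overlap for 0 of the 8, against 5.1% of all genes. Hsd17b3, left out of these counts, was not called either. The intervals show what this comparison could miss. The 95% interval of the log2 difference was -0.38 to 0.91 for Hsd11b1, -0.30 to 0.30 for Hsd17b3, -0.66 to 1.057 for Srd5a1, -1.002 to 0.75 for Hsd11b2 and -1.38 to 0.64 for Hsd17b1. A 2-fold difference was therefore within the interval for Srd5a1, Hsd11b2 and Hsd17b1, and outside it for Hsd11b1. At the level of Hsd17b3 in these groups the pseudocount dominates, so that its narrow interval does not bound the fold.

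The balance of paired enzymes, either opposing enzymes or isoenzymes, was measured in each library as the log2 ratio of their (FPKM + 1). It was tested by exact two-sided permutation of 4 against 4 libraries, whose smallest p is 0.0286, with adjustment over 9 tests. The ratio of Hsd11b1 to Hsd11b2 was 1.74, 1.19, 0.80 and 1.99 in the control libraries, 5.04, 4.998, 4.99 and 5.04 in the PCOS libraries and 1.08, 1.81, 2.10 and 2.29 in the PCOS-MV libraries. The PCOS libraries lay far above both other groups and close together. The difference was 3.59 in PCOS vs Control, and for PCOS-MV against PCOS it was -3.20 (exact permutation test, p = 0.0286 in both, adjusted p = 0.0643, which does not pass 0.05). Both p-values are the smallest that this test can give. The adjusted value therefore reflects how many of the 9 tests reach it, and not the size of the difference. Between PCOS-MV and control libraries the difference was 0.39 (exact permutation test, p = 0.286). Most of the first 2 differences was the change of Hsd11b1 itself, 2.63 and -2.37. That of Hsd11b2, whose calls were not firm, was -0.95 and 0.83.

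The ratio of Hsd17b1 to Hsd17b2 did not separate the groups. Its mean was 4.22 ± 0.404 in the control group, 4.29 ± 0.794 in the PCOS group and 3.59 ± 0.893 in the PCOS-MV group (SD, n = 4), and the exact permutation p was between 0.229 and 0.914 in the 3 comparisons. It was lowest in PCOS-MV replicate 4 with 2.58, where Hsd17b1 was lowest. The ratio of Srd5a1 to Srd5a2 repeats Srd5a1, since Srd5a2 was at or near 0, with a difference of -0.95 in PCOS vs Control, and for PCOS-MV against PCOS it was 1.14 (exact permutation test, p = 0.0286 in both, adjusted p = 0.0643).

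**Figure D3:**
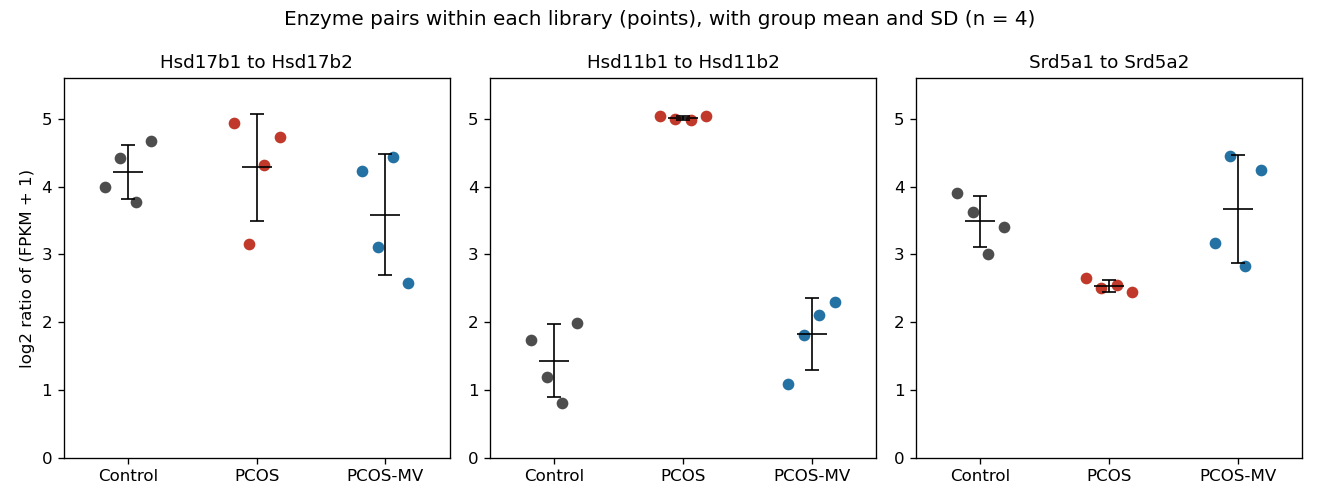
Log2 ratio of (FPKM + 1) of 3 enzyme pairs within each library (points, vertical axis) in the 3 groups, with mean and SD (n = 4). The 4 PCOS libraries sit at 4.99 to 5.04 for Hsd11b1 to Hsd11b2, above the other 8 libraries, which reach 2.29.

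Other genes of steroid metabolism were counted in lists, as genes called higher and lower by limma. Of 8 genes of upstream synthesis, 2 rose and 4 fell in PCOS vs Control, and 3 rose and 2 fell in PCOS-MV vs PCOS (median log2 change -0.46 and 0.15). Cyp17a1, which makes the androstenedione that Hsd17b3 uses, was 34.6, 1190 and 37.4 FPKM on average in Control, PCOS and PCOS-MV rats. Cyp19a1, the aromatase that letrozole blocks, was 16.7 ± 2.24, 58.5 ± 8.27 and 11.5 ± 13.3 FPKM (SD, n = 4), with log2 changes of 1.74 and -2.81 (limma adjusted p = 3.6e-05 and 0.0114). Both thus moved in the same direction as Hsd17b3 and Hsd11b1.

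Among 6 further 17-beta-hydroxysteroid dehydrogenase genes found in the table, 4 were tested, and 2 rose in PCOS vs Control and the same 2 fell in PCOS-MV vs PCOS. They were Hsd17b11, an enzyme of lipid droplets, at 53.8, 82.1 and 56.3 FPKM on average in Control, PCOS and PCOS-MV rats, and the mitochondrial Hsd17b10, at 48.6, 69.3 and 51.5 FPKM. Of 3 tested genes of the 3-beta-hydroxysteroid dehydrogenase family, 1 was lower in PCOS vs Control and higher in PCOS-MV vs PCOS. It was Hsd3b3, at 2615 ± 426, 1620 ± 126 and 2896 ± 435 FPKM (SD, n = 4), whose near copies can share its reads. Both calls of Hsd3b3 were lost with no filter on low values.

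Of 6 tested aldo-keto reductases of steroids, 1 fell in PCOS vs Control, and 1 rose and 1 fell in PCOS-MV vs PCOS. The gene named Akr1c3 in the table, for which RefSeq gives Akr1c18 as another name, encodes the enzyme that inactivates progesterone in the corpus luteum. It was 2056 ± 1095, 330 ± 112 and 2496 ± 1498 FPKM (SD, n = 4), with log2 changes of -2.52 and 2.81 (limma adjusted p = 0.00282 and 0.00152). Akr1c14, which acts on dihydrotestosterone and reduced progesterone after the 5-alpha reductases, was 82.5, 87.6 and 56.3 FPKM and fell by 0.64 in PCOS-MV vs PCOS (adjusted p = 0.00479). Genes of this family are alike in sequence and can share reads.

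Among genes of steroid receptors, Esr2, the estrogen receptor of granulosa cells, was 16.3, 25.95 and 14.5 FPKM on average in Control, PCOS and PCOS-MV rats, and it rose by 0.69 and afterwards fell by 0.81 in log2 terms (limma adjusted p = 0.0319 and 0.00147). The rise of Esr2 lost its call with no filter on low values. Esr1 fell by 1.18 in the PCOS-MV against the PCOS group (limma adjusted p = 0.0143). Nr3c1, the glucocorticoid receptor, was not matched and is not analysed here. Of 3 tested genes that conjugate steroids, 1 was called higher in PCOS vs Control and lower in PCOS-MV vs PCOS. It was the phenol sulfotransferase Sult1a1, at 19.7, 56.7 and 19.8 FPKM.

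The partners of the enzymes outside steroid metabolism were counted in the same way. Of 3 genes that serve the NADPH supply of Hsd11b1 in the endoplasmic reticulum, 0 were called in PCOS vs Control (limma, adjusted p under 0.05) and 1 rose in PCOS-MV vs PCOS. It was the glucose 6-phosphate transporter gene Slc37a4, at 9.88, 8.02 and 12.4 FPKM on average in Control, PCOS and PCOS-MV rats. Of 9 tested genes of fatty acid elongation, which share the pathway of Hsd17b12, 2 rose in PCOS vs Control and 1 rose in PCOS-MV vs PCOS. The first were Hacd2, a dehydratase at 23.0 and 34.8 FPKM, and Elovl5, an elongase at 148 and 202 FPKM in the control and PCOS groups. The latter was the elongase gene Elovl1, with a mean of 23.6 FPKM in PCOS rats and 36.5 FPKM in PCOS-MV rats.

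Of 12 tested genes of peroxisomal beta-oxidation, the pathway of Hsd17b4, 4 rose and 1 fell in PCOS vs Control, and 1 rose and 4 fell in PCOS-MV vs PCOS (median log2 change 0.11 and -0.14). With no filter on low values, 2 rose in PCOS vs Control. Crot, which makes carnitine esters of the shortened chains, was 26.1 ± 2.59, 53.9 ± 8.55 and 23.9 ± 2.85 FPKM, and Acaa1a, the thiolase that acts after Hsd17b4, was 17.9 ± 3.68, 32.3 ± 5.45 and 19.2 ± 0.602 FPKM (SD, n = 4). Of 9 genes of dolichol synthesis and use, 1 rose and 2 fell in PCOS vs Control and 2 rose in PCOS-MV vs PCOS. They were of small size, such as Alg5, a glucosyltransferase at 17.99, 14.4 and 18.9 FPKM, Dpm2 at 17.8, 14.8 and 18.1 FPKM, Nus1 at 24.7, 19.3 and 23.0 FPKM and Dpm1 at 7.63, 10.04 and 8.06 FPKM.

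Markers of ovarian cell types also differed between the groups. Summed over 6 theca and interstitial markers, FPKM was 116 to 155 in the control libraries, 1697 to 3185 in the PCOS libraries and 110 to 196 in the PCOS-MV libraries, and 3 of the 6 rose and 1 fell in PCOS vs Control. In the PCOS group most of this sum was Cyp17a1 and Insl3, with means of 1190 and 1032 FPKM, while in the Control and PCOS-MV groups the largest part was Nr2f2, with 68.5 and 74.0 FPKM. Between PCOS and Control the other 4 markers differed by at most 0.67 on the log2 scale. Over 7 luteal markers the sum was 5540 to 6429, 1488 to 2751 and 3873 to 9344 FPKM, with 1 higher and 4 lower in PCOS vs Control. Over 10 granulosa markers it was 950 to 1316, 1545 to 2215 and 878 to 1434 FPKM, with 5 higher and 1 lower. Hsd17b3 and Hsd11b1 were thus high in the libraries where the theca sum was high and the luteal sum low, and Srd5a1 was low there. The part of cell makeup in these results was not tested.

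Markers of other cells that could be carried along were also measured. Over 7 adipocyte markers, a cell type that expresses Hsd11b1, the sum was 17.5 to 69.0 FPKM in the control libraries, 5.38 to 10.3 FPKM in the PCOS libraries and 9.42 to 39.7 FPKM in the PCOS-MV libraries, with 0 higher and 4 of 5 tested lower in PCOS vs Control. In PCOS-MV vs PCOS, 2 of the 5 were higher and 0 lower. They were Fabp4, at 2.15 and 19.7 FPKM on average in PCOS and PCOS-MV rats, and Cidea, at 1.57 and 5.29 FPKM. The other 3 were not called. Adipoq was 13.2, 1.52 and 1.27 FPKM on average in Control, PCOS and PCOS-MV rats, Cidec 3.03, 0.109 and 0.127 FPKM, and Plin4 2.15, 1.58 and 1.39 FPKM. The part of adipocytes in the level of Hsd11b1 was not tested. Over 6 leukocyte markers the sum was 180 to 255, 225 to 262 and 207 to 321 FPKM, and over 5 endothelial markers it was 89.2 to 113, 57.9 to 72.6 and 79.3 to 105 FPKM. Smooth muscle (364 to 1004 FPKM in the control libraries, 491 to 621 in the PCOS libraries and 361 to 740 in the PCOS-MV libraries), proliferation (36.8 to 91.5, 34.7 to 50.6 and 35.4 to 69.3 FPKM) and oocyte markers (14.7 to 25.0, 14.0 to 15.7 and 15.9 to 25.5 FPKM) overlapped between the control and PCOS groups. Markers of ciliated oviduct epithelium summed to 70.6 FPKM in Control replicate 3, to 2.06 to 14.3 FPKM in the other control libraries and to at most 4.17 FPKM in the PCOS and PCOS-MV libraries. Markers listed at 0 in at least 1 library were Lep and Cidec of adipocytes and Dnah5 and Cdhr3 of ciliated epithelium.

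**Figure D4:**
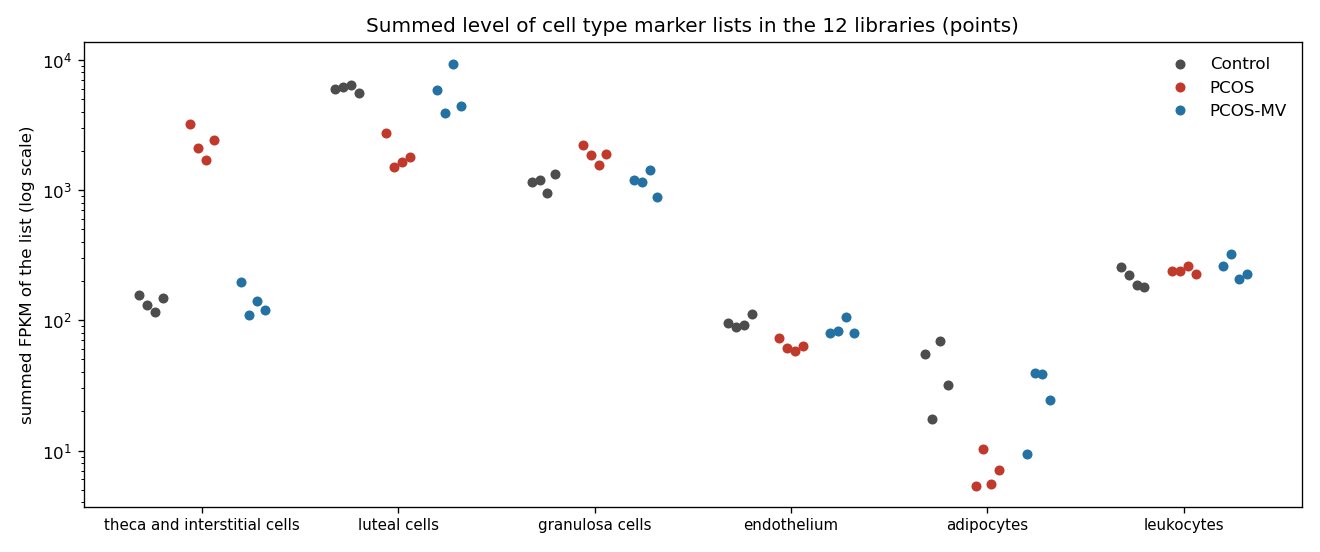
Summed FPKM of 6 cell type marker lists (vertical axis, log scale) in each library (points), coloured by group. The theca and interstitial sum lies between 1697 and 3185 FPKM in the PCOS libraries and at or below 196 FPKM in the others, and the luteal and adipocyte sums are lower in the PCOS than in the control libraries.

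Genes most like each called enzyme gene were sought by Pearson's r of log2(FPKM + 1) over the 12 libraries, which is a description of likeness across the 3 groups. For Hsd17b3 they were Corin (r = 0.984), Cst3 (r = 0.980) and RGD1565355 (r = 0.979). Corin, a serine protease gene, was 0.209 to 0.316 FPKM in the control libraries, 6.31 to 11.6 FPKM in the PCOS libraries and 0.177 to 0.491 FPKM in the PCOS-MV libraries. For Hsd11b1 they were Rarres2 (r = 0.992), Ctsk (r = 0.988) and Dhtkd1 (r = 0.986). Rarres2, which encodes the adipokine chemerin, was 18.2 to 21.0, 38.8 to 46.8 and 15.8 to 26.5 FPKM in the 3 groups, and Ctsk, which encodes the protease cathepsin K, was 17.3 to 20.1, 40.4 to 49.5 and 17.9 to 23.6 FPKM. For Srd5a1 they were Fem1b (r = 0.959), Bin1 (r = 0.957) and Impa2 (r = 0.946), for Hsd11b2 Pdlim7 (r = 0.948), Dpt (r = 0.925) and Prrx1 (r = 0.922), and for Hsd17b12 Tagln2 (r = 0.955), Haus4 (r = 0.947) and Hspa9 (r = 0.945). Prrx1 and Dpt are genes of connective tissue.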

How the data were processed

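Ovarian RNA-seq libraries of 12 rats, 4 per group, were assigned to groups by their titles, and the columns named MG were taken as PCOS-MV because only that group received a mogroside. The authors deposited FPKM per library, with their own fold changes, p-values and group means, which were not used. The paper's methods name HISAT2 v2.0.5 and featureCounts, while the submitters' processing notes name STAR 2.5.1b and HTSeq 0.6.0, and the genome build is not given in the sources used here. The table repeats a gene on 26928 transcript lines with equal values, and 1 line per gene was kept. Depth was estimated from genes with 1 transcript line, where FPKM times length of values under 0.05 FPKM fell on steps (46% to 52% within 0.06 of a whole number of fragments, 10.3% by chance). Since many low values did not fall on whole fragments, no count test was run, and fragments are estimates. Whether counting used strand is not stated.

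The limma package (3.58.1, R 4.3.3, eBayes with trend) was fitted to log2(FPKM + 1), 2 groups at a time, with no covariate, in place of a count test, since the file holds FPKM. The fit was tried on simulated data of 4 against 4 libraries and 13430 genes, with equal spread in both groups. With 200 genes changed by 1.5 on the log2 scale, 91.3% were recovered and 4.99% of calls were false. In the real comparisons many more genes were called, spreads differed between groups and several reported changes were smaller. These shares therefore do not carry over to the calls reported here. Python 3.11.15 and pandas 2.3.3 were used for tables. The enzyme genes and gene lists were chosen with earlier results of these data known. Named genes were the 10 enzyme genes, of each pathway list the 2 called genes with the largest change in each of the first 2 comparisons, and the 3 genes most alike to each called enzyme gene. Foxl2, Insl3 and Nr2f2, the tested adipocyte markers, and the markers named as listed at 0, were added after their values were seen. A gene that this rule names is not reported here. Motifs were searched in RefSeq promoters (GRCr8). P-values measure the spread between the rats of a group. Alternatives covered the pseudocount, the filter, 1 model for all libraries, a 2-fold threshold, rescaling, the replicate number as a block and each library left out.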

Additional observations from a re-analysis of the deposited data

Results flagged for a closer look

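In 39 groups of 4 values, those of the 10 enzyme genes and the 3 ratios in each group, 3 held a library far from the other 3, where chance gives about 1.95. Hsd17b2 in PCOS replicate 2 was 3.21 FPKM, against 0.414 to 0.846 FPKM in the other PCOS libraries. Hsd11b2 in PCOS-MV replicate 3 was 1.40 FPKM, against 4.203 to 4.50 FPKM in the other PCOS-MV libraries. Srd5a2 in PCOS-MV replicate 3 was 0.0153 FPKM, an estimated 1 fragment, and was listed at 0 in the other PCOS-MV libraries.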

How the results depend on the processing

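Both calls of Hsd17b3 and both of Hsd11b1 held in every setting in which these genes were tested. A filter at a mean of 5 FPKM left out Hsd17b3, Hsd17b2 and Hsd11b2, so that 1 gene was higher in PCOS vs Control, and 1 higher and 1 lower in PCOS-MV vs PCOS. The number of enzyme genes lower in PCOS vs Control, 3 as reported, was 1 with no filter, 0 in 1 model for all 12 libraries and 0 with a 2-fold change required. The number higher in PCOS-MV vs PCOS, 2 as reported, was 0 with no filter and 1 with a 2-fold change required. With 1 library left out, it was 0 to 3, and the number lower in PCOS vs Control was 1 to 3. The other 2 such counts, higher in PCOS vs Control and lower in PCOS-MV vs PCOS, stayed at 2 with Hsd17b3 counted. As reported without Hsd17b3, each was 1. The share of all genes called was not counted in these settings. It is therefore not known whether the changed counts are particular to the enzyme genes. The cause was not tested.

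Log2 changes that did not pass and changed sign with a library left out ranged from -0.0705 to 0.29 for Srd5a3 in PCOS vs Control, from -0.28 to 0.0834 in PCOS-MV vs PCOS and from -0.0930 to 0.17 in PCOS-MV vs Control. They ranged from -0.40 to 0.33 and from -0.64 to 0.10 for Hsd17b1 in PCOS-MV vs PCOS and PCOS-MV vs Control. In PCOS-MV vs Control they ranged from -0.0371 to 0.0251 for Hsd17b3, from -0.15 to 0.00547 for Hsd17b4, from -0.41 to 0.16 for Hsd11b2 and from -0.0606 to 0.47 for Srd5a1, and Hsd17b3 was 0.0203 with a pseudocount of 0.1. The ratios of Hsd11b1 to Hsd11b2 and of Hsd17b1 to Hsd17b2 kept their direction with another pseudocount. With a library left out, however, the difference in the ratio of Hsd17b1 to Hsd17b2 ranged from -0.15 to 0.44 in PCOS vs Control. That of Srd5a1 to Srd5a2 ranged from -0.0679 to 0.47 in PCOS-MV vs Control.

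The samples share a replicate number across groups. The correlation of same-numbered libraries' deviations from their group means was -0.053 to 0.216. It passed 0.1 in 0 of 4 pairs in PCOS vs Control and in 3 of 4 in PCOS-MV vs PCOS. In PCOS-MV vs Control it passed in 1 of 4. Libraries with different numbers were not compared, so these values do not decide whether the numbers pair the samples. With the replicate block, and with Hsd17b3 counted, 2 enzyme genes were higher and 2 lower in PCOS vs Control. In PCOS-MV vs PCOS, 2 were higher and 2 lower. The share of all genes called under the block was not counted. Hsd11b2 in PCOS vs Control (adjusted p = 0.0733) and Srd5a1 in PCOS-MV vs PCOS (adjusted p = 0.0522) lost their calls under the block, and Hsd17b12 in PCOS-MV vs PCOS gained one (adjusted p = 0.0243).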
